A study of Rattus norvegicus with 31 samples.

Results

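Interferon response genes are the genes that cells switch on when an interferon binds its receptor. The 33 genes described here are Irf7, Irf9, Stat2, Isg15, Ifit1, Ifit2, Ifit3, Mx1, Mx2, Oas1a, Oas1b, Oas1g, Oas1i, Oas2, Oas3, Oasl, Oasl2, Rsad2, Usp18, Bst2, Ifi27, Ifi27l2b, Ifi44, Ifi44l, Ifih1, Dhx58, Xaf1, Gbp2, Gbp5, Herc6, Parp14, Zbp1 and Ifitm3. They were listed by symbol for their known role, with earlier results of these data known, and the rule itself uses no measured value. A RefSeq table of 19100 genes held 32 of them, all but Oas1g, whose symbol RefSeq gives as a synonym of Oas1a. A table of 46063 genes that the authors assembled from their own reads held 26 of them as a gene of that name alone. Where several assembled genes carried the name, the one with the highest mean was used. This applied to Oas1a and Oasl2 (2 each), Oas2 and Ifih1 (3 each) and Ifi44l (4). Irf9, Oas1b, Oas1g, Oas1i and Oas3 were not found there by name, Dhx58 shared its assembled gene with Kat2a and Herc6 with Rps7-ps20, so these 7 were not analysed in that table.

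After depletion of ribosomal RNA, total RNA of the left ventricle was sequenced from untreated rats that were, by the series' design text, male and naive to alcohol and drugs; no source used here gives their age. The groups were SHR/OlaIpcv, the spontaneously hypertensive rat (4 animals, batch 1), BN-Lx/Cub, a Brown Norway strain that carries the Lx polydactyly mutation (4 animals, batch 1), and 2 families of recombinant inbred strains bred from reciprocal crosses of SHR and BN-Lx, HXB/Ipcv (12 strains) and BXH/Cub (9 strains), with 1 library per strain in batches 2 and 3 (3 HXB and 3 BXH strains in batch 2, 9 and 6 in batch 3). The labels name these as sequencing batches. SHR replicate 4 also had a library in each of the later batches. With 1 animal per recombinant inbred strain, differences between strains and between animals cannot be told apart in the panel. Whether replicates share a litter is not stated, and p-values measure only the spread among the animals taken. The values are on a log2 scale whose transformation is not stated, and with no counts in the files neither the depth nor a counting error can be given. They are not scaled to gene length, and levels of different genes are therefore not ranked. As a check of the tissue, all 9 listed cardiomyocyte markers were measured, with a sum of 21.3 to 21.9 (log2) over the 21 recombinant inbred strains. The 12 macrophage markers summed to 13.1 to 13.8, and of 3 markers of plasmacytoid dendritic cells Spib reached 4.82, Siglech 1.64 and Ccr9 1.18.

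Interferons of type I bind a receptor whose kinases activate STAT2, encoded by the member Stat2. With IRF9, encoded by the member Irf9, it takes part in a complex that binds the interferon-stimulated response element (ISRE) in front of its target genes. One target is Irf7, whose product amplifies the production of interferon, and others encode the antiviral effectors (Mx1 and Mx2, dynamin-like GTPases; the Ifit proteins, which bind viral RNA; the Oas enzymes, which sense double-stranded RNA and activate RNase L), the ubiquitin-like modifier Isg15 and its protease and pathway brake Usp18, and the RNA sensors Ifih1 and Dhx58. In tissue without infection these genes are read at a low tonic level.

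Promoter sequences from RefSeq (build GRCr8, a Brown Norway genome, 250 bases before to 50 bases after the start of each gene) were found for 23 of the 33 members. The ISRE core GAAANNGAAA, searched on both strands (TTTCNNTTTC on the other), occurred in 18 of these 23 windows and in 3.92% of all 33469 promoters of that length. A match is a description of the letters and not a measured site. The stretches below show the matches of Irf7, which anchors the panel results, of 3 Oas1 genes that rose with it and share a double match, of Bst2, which has nearly the same double match and was higher in SHR, and of Oasl2, Ifi27 and Ifi44l, which differed between SHR and BN-Lx. Capitals mark the ISRE core and each stretch ends before the start of the gene. The matches of the double elements overlap by 4 bases.
Irf7, chr1:205800058-205800117, minus strand: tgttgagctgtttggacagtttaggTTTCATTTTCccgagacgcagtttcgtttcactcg
Oas1a, chr12:41330400-41330465, plus strand: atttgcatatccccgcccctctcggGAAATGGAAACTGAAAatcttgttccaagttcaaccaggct
Oas1b, chr12:41395871-41395936, minus strand: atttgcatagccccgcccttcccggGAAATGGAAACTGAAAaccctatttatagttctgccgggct
Oas1i, chr12:41285165-41285225, plus strand: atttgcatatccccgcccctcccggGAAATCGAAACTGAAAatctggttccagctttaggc
Bst2, chr16:18255058-18255123, minus strand: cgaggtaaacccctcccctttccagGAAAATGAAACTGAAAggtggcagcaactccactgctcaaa
Oasl2, chr12:47383302-47383361, minus strand: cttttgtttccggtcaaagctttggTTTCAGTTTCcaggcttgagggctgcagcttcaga
Ifi27, chr6:128355118-128355262, plus strand: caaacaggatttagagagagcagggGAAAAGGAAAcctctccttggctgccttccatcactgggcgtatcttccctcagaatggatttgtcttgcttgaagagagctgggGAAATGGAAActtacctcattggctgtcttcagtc
Ifi44l, chr2:243328607-243328698, plus strand: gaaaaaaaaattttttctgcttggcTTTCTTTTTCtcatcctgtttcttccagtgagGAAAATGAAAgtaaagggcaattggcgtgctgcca
The windows of Irf9, Stat2, Mx1, Oasl and Herc6 held no such core.

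The first comparison asked which of these genes differ between the hearts of the 2 progenitor strains. In SHR 4 of the 26 members measured as assembled genes were higher (Ifit1, Mx1, Bst2 and Ifi27) and 2 were lower (Oasl2 and Ifi44l), at a Benjamini-Hochberg adjusted p under 0.05 over all 46063 assembled genes in limma. Of all assembled genes 14.3% passed that test, 7.38% higher and 6.95% lower, so the share among the members, 6 of 26, was of the order of the background. The median difference over the 26 members was 0.11 (log2, SHR minus BN-Lx), against 0.01 over all assembled genes. The ranges of the 4 SHR and 4 BN-Lx animals did not overlap for 2 of the 26 members, Ifit1 and Ifi44l, and for 20.6% of all assembled genes. Whole tissue was measured, so fewer cells of a type and less RNA per cell cannot be told apart.

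**Figure D1:**
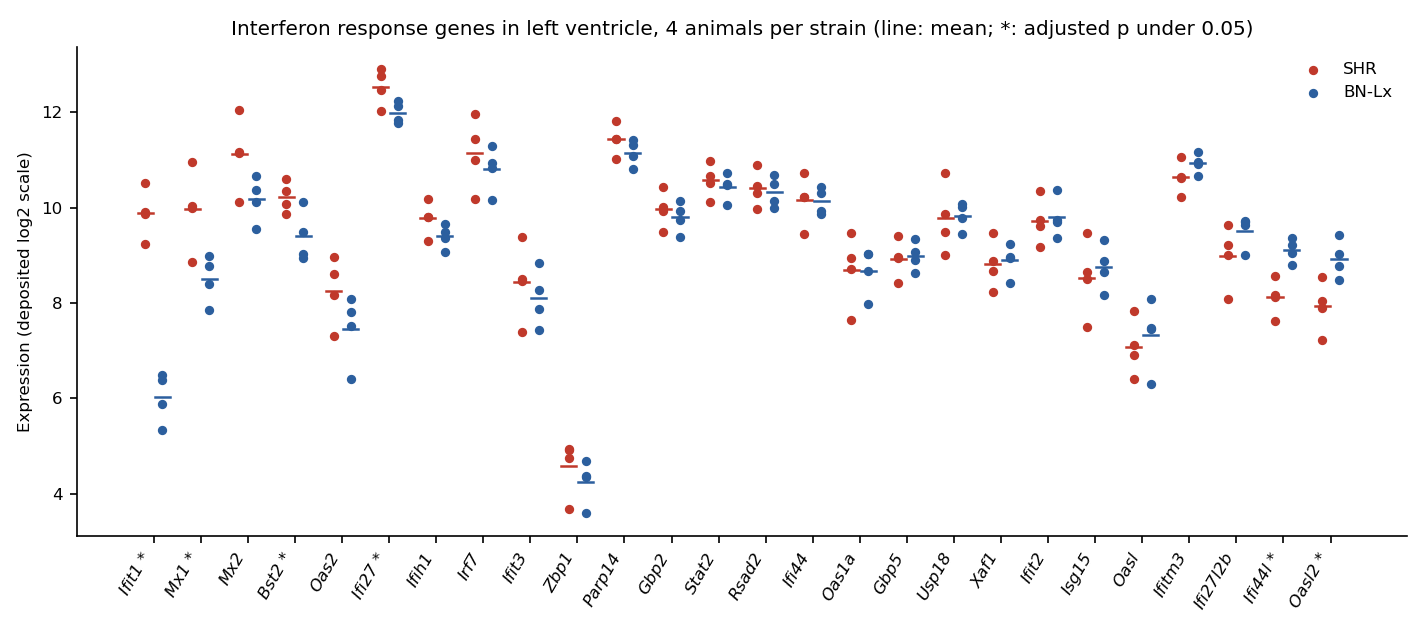
Deposited log2 level (vertical axis) of 26 interferon response genes in the left ventricle of 4 SHR animals (red, left of each pair) and 4 BN-Lx animals (blue, right), with the mean as a line and an asterisk at the 6 genes that passed the test. Genes run from the highest to the lowest difference, and only Ifit1 (3.86) and Ifi44l (-0.99) among the 26 have ranges that do not overlap.

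Ifit1, whose product blocks translation of foreign RNA, stood at 10.51, 9.88, 9.24 and 9.91 in the 4 SHR hearts, against 6.50, 5.89, 6.38 and 5.33 in the 4 BN-Lx hearts. Every SHR animal was higher than every BN-Lx animal, with a difference of 3.86 (SE 0.27, adjusted p = 1.53e-06 in limma). The call held in all 15 alternative analyses, with adjusted p from 1.53e-06 to 0.0151. Its assembled gene lies at chr1:232152038-232154103 (rn7, plus strand, 1 exon, 1 transcript). In the same cluster, Ifit2 (chr1:232093169-232109339) was 9.72 ± 0.49 in SHR and 9.79 ± 0.43 in BN-Lx, and Ifit3 (chr1:232114166-232119311) was 8.44 ± 0.82 in SHR and 8.11 ± 0.60 in BN-Lx (SD, n = 4 each). Neither passed (limma adjusted p = 0.862 and 0.585). Ifit1 has a close relative in the rat, Ifit1bl, and how reads that fit both were assigned cannot be seen in the files.

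Mx1 was 10.96, 9.99, 8.87 and 10.04 in SHR, against 8.77, 8.99, 7.85 and 8.39 in BN-Lx, a difference of 1.47 (SE 0.35, limma adjusted p = 0.0148). The ranges overlapped, since the lowest SHR animal was below the highest BN-Lx animal. Mx2, its neighbour on chromosome 11, was 12.04, 11.17, 10.11 and 11.15 in SHR, against 10.36, 10.67, 9.55 and 10.11 in BN-Lx, and its difference of 0.95 (SE 0.32) did not pass (limma adjusted p = 0.0716). The 2 genes lie at chr11:36799659-36825209 (Mx1, minus strand) and chr11:36905698-36936308 (Mx2, plus strand) in rn7. When limma ran with no trend the Mx1 call was lost (adjusted p = 0.0725), likewise when all groups shared a fit (0.105), over a range of 0.000119 to 0.105 in 15 alternatives. Of the 5 assembled transcripts of Mx1 with values, each averaged higher in SHR, by 1.37 to 2.42.

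Bst2 encodes tetherin, which holds budding virus particles at the cell surface. Its level was 10.61, 9.88, 10.08 and 10.35 in SHR, against 9.03, 10.12, 8.95 and 9.49 in BN-Lx, with a difference of 0.83 (SE 0.23, limma adjusted p = 0.0278, 0.00218 to 0.107 over the alternatives). BN-Lx replicate 2 lay inside the SHR range. The later library of SHR replicate 4 read 9.45 for Bst2, 0.90 below the library of batch 1, and with the mean of both libraries the call was lost (adjusted p = 0.0628), as it was without SHR replicate 1 (0.0765), SHR replicate 4 (0.0748), BN-Lx replicate 1 (0.0799) or BN-Lx replicate 3 (0.0829).

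Ifi27, a small mitochondrial membrane protein gene, was 12.90, 12.48, 12.03 and 12.75 in SHR, against 12.24, 12.12, 11.84 and 11.77 in BN-Lx. Its difference of 0.55 (SE 0.16) was the weakest of the 6 calls (limma adjusted p = 0.0425) and was lost in 9 of the 15 alternatives (adjusted p from 0.00415 to 0.1502), among them those without SHR replicate 1 (0.106), 2 (0.0731) or 4 (0.118) and without BN-Lx replicate 2 (0.0520), 3 (0.111) or 4 (0.104). The neighbouring Ifi27l2b on chromosome 6 was 8.99 ± 0.66 in SHR and 9.51 ± 0.34 in BN-Lx (SD, n = 4 each), in the other direction and without passing (limma adjusted p = 0.220).

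The 2 genes that fell were Oasl2 and Ifi44l. Oasl2, an Oas-like gene, was 8.54, 7.90, 7.23 and 8.05 in SHR, against 9.03, 9.42, 8.48 and 8.77 in BN-Lx, a difference of -0.997 (SE 0.25, limma adjusted p = 0.0181). Only SHR replicate 1 reached the BN-Lx range. The name Oasl2 was carried by 2 assembled genes, and these values are those of the one with the higher mean. Its neighbour Oasl, on the same stretch of chromosome 12 (chr12:41682289-41695907, with Oasl2 at chr12:41708022-41722799), was 7.07 ± 0.59 in SHR and 7.33 ± 0.74 in BN-Lx (SD, n = 4 each, limma adjusted p = 0.671). With no trend in limma the Oasl2 call was lost (adjusted p = 0.0788), likewise when all groups were fitted together (0.0964), and its adjusted p ranged from 2.18e-05 to 0.0964.

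Ifi44l, a gene of unsettled function beside Ifi44 on chromosome 2, was 8.57, 8.16, 7.62 and 8.14 in SHR, against 9.22, 9.37, 8.80 and 9.05 in BN-Lx. Its name was carried by 4 assembled genes, and these values are those of the gene at chr2:240648871-240707812. Every SHR animal was below every BN-Lx animal (-0.99, SE 0.18, limma adjusted p = 0.00298, 2.11e-05 to 0.0725 over the alternatives, the last in the fit of all groups). A later library of SHR replicate 4 read 9.08, within the BN-Lx range and 0.95 above its batch 1 library, and with the mean of both libraries the gene still passed (adjusted p = 0.0140). Of its 6 assembled transcripts with values 1 had the largest log2 difference: it stood at 2.75, 4.18, 1.48 and 3.08 in SHR, against 6.95, 7.29, 6.06 and 5.60 in BN-Lx, a mean difference of -3.60, while the other 5 differed by -0.23 to -0.85 with overlapping ranges. Ifi44 was 10.16 ± 0.53 in SHR and 10.14 ± 0.27 in BN-Lx (SD, n = 4 each).

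The transcription factors of the pathway did not pass between the strains. Irf7 was 11.96, 10.998, 10.19 and 11.45 in SHR, against 10.95, 11.29, 10.16 and 10.83 in BN-Lx (0.34, SE 0.31, limma adjusted p = 0.508), and Stat2 was 10.58 ± 0.36 in SHR and 10.44 ± 0.28 in BN-Lx (SD, n = 4 each, adjusted p = 0.635). Isg15, Usp18, Oas1a, Rsad2 (viperin, a radical SAM enzyme), the guanylate-binding proteins Gbp2 and Gbp5, the cell death factor Xaf1, the nucleic acid sensor Zbp1 and the membrane protein Ifitm3 did not pass either, with differences between -0.29 and 0.32. Oas2 (0.80, SE 0.37) and Ifih1 (0.38, SE 0.17) were higher on average but did not pass (limma adjusted p = 0.170 and 0.156). In data simulated with these libraries the test found 8% of changes of 0.5, 32% of 1 and 72% of 2 (log2, 50 genes each), so changes of 1 or less were mostly missed there. The changed genes were drawn from all assembled genes at any level, and all other genes were left unchanged. With few changed genes the adjusted threshold was stricter than in the real comparison, where 6603 genes passed. The shares therefore do not give the power for the members.

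What the members shared within a strain was the order of the animals. SHR replicate 1 was the highest of the 4 SHR animals for 25 of the 26 members, against 26% of all assembled genes, and SHR replicate 3 was the lowest for 25, against 23.5%. BN-Lx replicate 2 was the highest of the 4 BN-Lx animals for 21 of the 26, against 24.5%, and BN-Lx replicate 3 was the lowest for 24, against 25%. The exceptions in SHR were Zbp1, highest in replicate 2, and Bst2, lowest in replicate 2. These counts are a description, since the members vary together and each is not a separate observation.

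In size, SHR replicate 1 stood above its strain mean for all 26 members, by a median of 0.62 (range 0.35 to 1.00), and SHR replicate 3 below it for all 26, by a median deviation of -0.65 (range -1.10 to -0.15). The corresponding medians were 0.35 in BN-Lx replicate 2 and -0.44 in BN-Lx replicate 3. Over all assembled genes the median deviation of each of the 8 animals lay between -0.01 and 0.02. The spread within a strain of inbred animals was thus of the size of many of the strain differences above: Isg15, for instance, was 9.48, 8.50, 7.51 and 8.65 in SHR and 8.89, 9.33, 8.17 and 8.65 in BN-Lx.

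**Figure D2:**
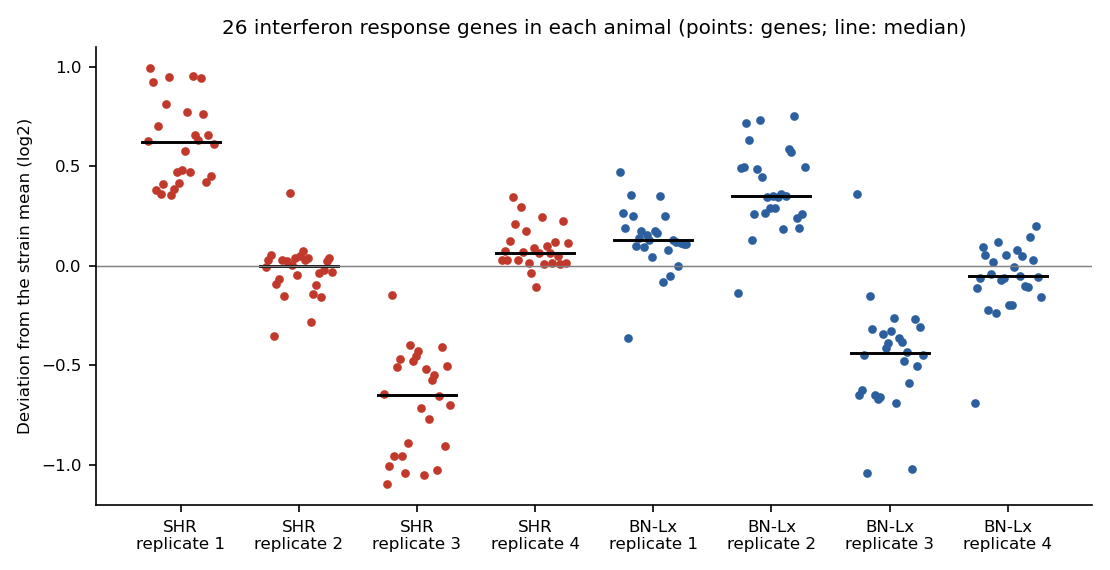
Deviation of each of the 26 genes from its strain mean (vertical axis, log2) in each of 4 SHR animals (red) and 4 BN-Lx animals (blue), with points for genes and a black line for their median. SHR replicate 1 (0.62) and BN-Lx replicate 2 (0.35) lie above their strains, and SHR replicate 3 (-0.65) and BN-Lx replicate 3 (-0.44) below.

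Markers of macrophages, which respond to interferon, were highest and lowest in the same animals within each strain. The summed level of 9 of the 12 listed macrophage markers (log2 of the sum of the values taken off the log scale) was 13.08 in SHR replicate 1 and 12.75 in SHR replicate 3, the highest and lowest of the SHR animals, and 13.28 in BN-Lx replicate 2 and 13.11 in BN-Lx replicate 3, the highest and lowest of the BN-Lx animals. Of these 9 markers 5 fell in SHR, as did 6.95% of all assembled genes. Between the strains the sums did not overlap, 12.75 to 13.08 in SHR and 13.11 to 13.28 in BN-Lx. Lymphocyte markers (11 of 12) summed to 8.19 to 8.50 in SHR and 8.60 to 8.81 in BN-Lx, lowest of the SHR animals in replicate 1. Of the BN-Lx animals they were highest in replicate 2 and lowest in replicate 3, as the macrophage markers were. The 3 listed markers of plasmacytoid dendritic cells other than Bst2 summed to 3.48 to 4.60 in SHR and 3.90 to 4.98 in BN-Lx. Other cell types partly followed the same animals: fibroblast markers (7 of 7) were also highest of the SHR animals in replicate 1 (16.98) and lowest in replicate 3 (16.65), endothelial markers (8 of 8) were highest of their strain in SHR replicate 1 (15.98) and BN-Lx replicate 2 (15.85), and cardiomyocyte markers (7 of 9) were highest of the SHR animals in replicate 1 (20.55). Of the 8 endothelial markers 5 were higher and 1 lower in SHR, against 7.38% and 6.95% of all assembled genes. The part of these cells in the results was not tested.

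Because the animals of a strain differed in the level of the whole set, the strains were also compared with the Irf7 level of each animal as a covariate, an analysis added after the values were seen. Of the 25 members other than Irf7, 5 were then higher in SHR and 6 lower, against 12.1% of all assembled genes called in that fit (6.15% higher and 5.92% lower). The standard error became smaller for all 25, and for Mx1 it was 0.12 with the covariate and 0.35 without it. Ifit1 (3.73, SE 0.27, limma adjusted p = 6.35e-06), Mx1 (1.09, SE 0.12, adjusted p = 0.000119), Mx2 (0.60, SE 0.11, adjusted p = 0.00381), Bst2 and Ifi27 were higher at a given Irf7 level. Oasl2 (-1.25, SE 0.11, adjusted p = 2.18e-05), Ifi44l (-1.16, SE 0.10, adjusted p = 2.11e-05), Ifi27l2b (-0.80, SE 0.11, adjusted p = 0.000736), Isg15 (-0.58, SE 0.11, adjusted p = 0.00502), Ifitm3 (-0.44, SE 0.08, adjusted p = 0.00343) and Oasl (-0.59, SE 0.18, adjusted p = 0.0494) were lower. Irf7 was itself measured in these 8 libraries, and the fit assumes that each gene follows it with the same slope in both strains. Because Irf7 varied with the other members across these animals, smaller standard errors and more calls among them are partly built in. All 25 differences were also lower with the covariate, as for Isg15 (-0.23 without and -0.58 with it). Irf7 itself averaged 0.34 higher in SHR (SE 0.31). The count of calls is therefore not read as a result about the members.

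**Figure D3:**
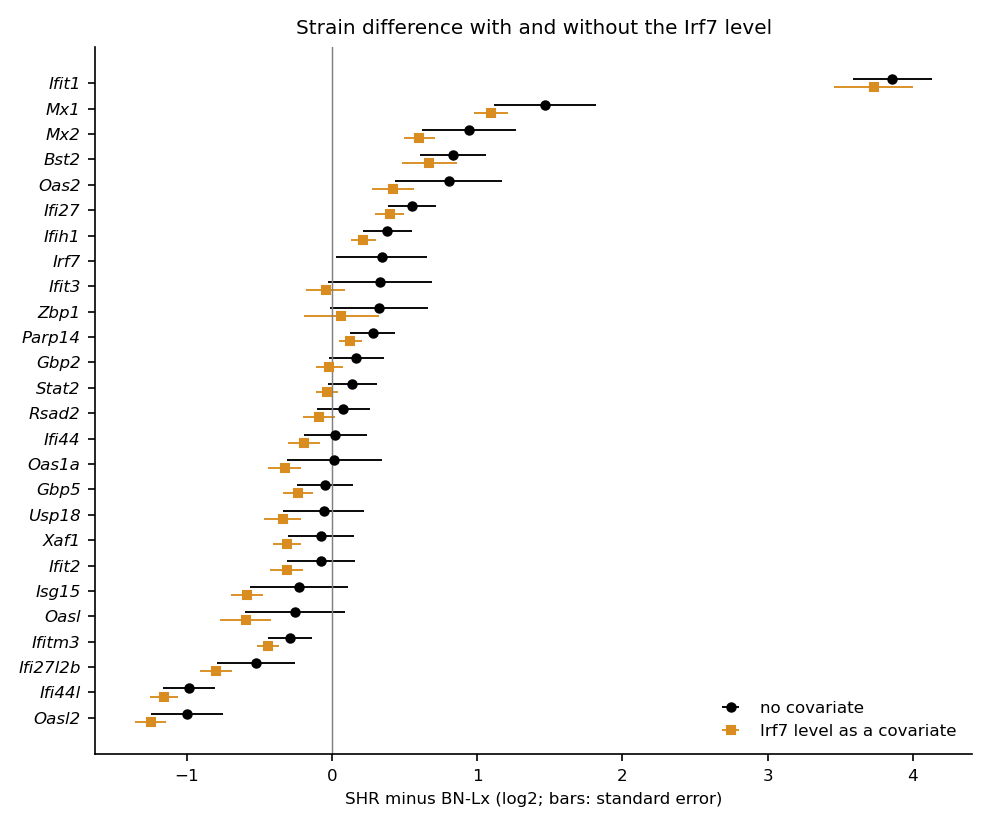
Difference SHR minus BN-Lx (horizontal axis, log2, with the standard error as bars) for 26 interferon response genes, without a covariate (black) and, for all but Irf7, with the Irf7 level of each animal as a covariate (orange). With the covariate the bars of all 25 genes shorten, as for Mx1 (SE 0.12 with and 0.35 without it), and 11 of 25 genes pass, 5 higher and 6 lower. That count is partly built in, since Irf7 varied with the other members across these animals.

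Of the other genes of the pathway some passed between the strains, where 14.3% of all assembled genes did (7.38% higher and 6.95% lower). The counts below are small and are not read as a result about these lists. Of the 11 listed interferon genes 1, Ifne, had an assembled gene (3.30 on average in SHR and 2.80 in BN-Lx), and it did not pass. Of 6 receptors and kinases measured 1 rose: Ifnar1, a chain of the type I interferon receptor, was 12.25 ± 0.05 in SHR and 11.64 ± 0.07 in BN-Lx (SD, n = 4 each, difference 0.61, SE 0.07, limma adjusted p = 5.14e-05). Of 11 nucleic acid sensors and adaptors 2 rose, Traf6 (0.46, SE 0.09, adjusted p = 0.00364), a ubiquitin ligase of receptor signalling, and Tlr3 (0.42, SE 0.11, adjusted p = 0.0250), a receptor for double-stranded RNA. None of 9 regulatory factors and brakes passed in limma (0 at an unadjusted p under 0.05). Of 33 other interferon-induced genes 1 rose and 2 fell. Gbp6, a guanylate-binding protein, was 4.19 ± 0.34 in SHR and 1.57 ± 0.64 in BN-Lx, and Oas1k, of the Oas family, was 5.39 ± 0.15 in SHR and 6.65 ± 0.43 in BN-Lx (SD, n = 4 each, limma adjusted p = 0.000506 and 0.00174). The assembled Gbp6 was low, where library medians of assembled genes were 3.99 to 4.73. As a RefSeq gene, Gbp6 ran from 6.73 to 8.29 over the recombinant inbred strains. The difference is therefore that of the assembled gene, and whether the RefSeq gene differs between SHR and BN-Lx was not tested.

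The second comparison asked whether the reciprocal families differ. In HXB strains 0 of 32 members were higher and 2 lower than in BXH strains, with batch in the limma fit, while 36.3% of all RefSeq genes passed (18.5% higher and 17.8% lower). Stat2 ran from 10.21 through a median of 10.39 to 10.76 in HXB strains, against 10.38, 10.52 and 11.16 in BXH strains (-0.27, SE 0.10, adjusted p = 0.0362). It averaged 0.28 lower in HXB within batch 2 (3 against 3 strains) and 0.26 lower within batch 3 (9 against 6), where it no longer passed (adjusted p = 0.101). Ifitm3, which blocks the entry of viruses through endosomes, was 10.62, 10.79 and 11.12 in HXB strains, against 10.81, 11.02 and 11.44 in BXH strains at the lowest, median and highest (-0.24, SE 0.08, adjusted p = 0.0199). Its mean was 0.07 lower in HXB within batch 2 and 0.31 lower within batch 3 (limma adjusted p = 0.0180).

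The ranges of both genes overlapped between the families, as they did for Irf7, which was 10.09, 10.996 and 12.09 in HXB strains, against 10.38, 11.12 and 12.36 in BXH strains at the lowest, median and highest (-0.38, SE 0.28, limma adjusted p = 0.304). The members varied more between strains than most genes did, with a median standard error of this difference of 0.20, against 0.07 over all RefSeq genes, so the same difference was harder to detect for them. The counts of other listed genes below stand beside 36.3% of all RefSeq genes that passed, and are not read as a result about these lists. Ifngr2 (-0.25, SE 0.04, limma adjusted p = 0.000415) and Jak2 (0.30, SE 0.08, adjusted p = 0.00415) led the 3 of 10 receptors and kinases that passed. Myd88 (-0.34, SE 0.06, adjusted p = 0.000415) and Mavs (-0.39, SE 0.07, adjusted p = 0.000614) led 5 of 16 sensors and adaptors, Irf1 (-0.25, SE 0.06, adjusted p = 0.00400) and Socs3 (-0.27, SE 0.07, adjusted p = 0.00563) led 5 of 12 regulatory factors and brakes, and Ifitm2 (-0.22, SE 0.05, adjusted p = 0.00147) and Ifi35 (-0.43, SE 0.09, adjusted p = 0.00149) led 11 of 48 other interferon-induced genes. Macrophage markers were lower in HXB for 6 of 12, against 17.8% of all RefSeq genes. Their sums were 13.09 to 13.53 in HXB strains and 13.35 to 13.77 in BXH strains.

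Between the 21 strains the members differed widely. The distance from the lowest to the highest strain ran from 0.76 (Rsad2) to 4.03 (Ifit1) on the log2 scale, and the median SD between strains, centred within batch, was 0.52 for the 32 members and 0.18 for all RefSeq genes. By this SD 25 of the 32 members were above the 90th percentile of all RefSeq genes. The 6 with the largest spread were Ifit1 (SD 1.299), Mx1 (0.91), Ifi44l (0.80), Oas2 (0.79), Mx2 (0.75) and Irf7 (0.72).

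In the table of assembled genes the SD between strains was a median of 1.08 times the SD between animals of a progenitor strain for the 26 members, against 1.21 for all assembled genes. It exceeded the animal SD for 17 of the 26 members, and for 70.8% of all assembled genes. The highest ratios among the members were those of Ifit1 (3.00), Ifi44l (1.82), Ifi27 (1.38), Mx1 (1.33) and Oasl2 (1.31), and those of Ifit2 and Rsad2 were 0.80. The 5 members with the highest ratios were all among the 6 that passed between SHR and BN-Lx, and the ratio of Bst2 was 1.11. The ratio and that test both use the spread among the same progenitor animals, so this overlap is partly built in. Both SHR and BN-Lx animals were sequenced in batch 1 and the panel in later batches. In the table of assembled genes the later library of SHR replicate 4 differed from its batch 1 library by a median of 0.24 over the 26 members (0.40 over all assembled genes), from -0.90 to 0.95, and 7 members were over 0.5 apart, Ifi44l (0.95) and Bst2 (-0.90) by more than their SD between strains (0.59 and 0.49). In the RefSeq table the 2 later libraries of that animal differed by a median of 0.08 over the 32 members, and by at most 0.27 for all but Ifit1, which differed by 1.12.

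The third question was which members vary with Irf7 across the strains. With batch in the limma fit, 22 of the 31 other members rose with Irf7 and 0 fell, against 0.377% of all RefSeq genes called, all of them rising. The 22 were among 72 genes called, of which another 22 were listed genes of the pathway or markers, and 28 were in no list. Spearman's rho with Irf7 (batch-centred levels, 21 strains) was positive for all 31 members, with a median of 0.76, against 0.0026 over all RefSeq genes, and exceeded 0.7 for 22 of them, against 0.361% of all genes. The points share libraries, and each library holds 1 animal.

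By rho the members closest to Irf7 were Ifi27l2b, Oasl and Oas2, which averaged 0.73 (SE 0.06), 0.82 (SE 0.07) and 1.03 (SE 0.08) higher per unit of Irf7, with r = 0.94 for each and rho = 0.93, 0.93 and 0.92 (limma adjusted p = 1.37e-07 for each). Oas1a (0.88, SE 0.07), Oas1b (0.74, SE 0.07) and Oas1i (0.77, SE 0.07), Usp18 (0.75, SE 0.07), Dhx58 (0.58, SE 0.07), Xaf1 (0.50, SE 0.06), Isg15 (0.68, SE 0.08) and Irf9 (0.35, SE 0.04) followed with r from 0.87 to 0.94. Without the 2 strains farthest from the median Irf7 level, BXH13 and BXH12, r stayed between 0.75 and 0.93 among the 22. The 9 members that did not pass were Ifit1, Ifit2, Mx2, Rsad2, Bst2, Ifi44l, Ifih1, Herc6 and Ifitm3, with rho from 0.37 (Rsad2) to 0.74 (Herc6, adjusted p = 0.0524). Within batch 2 (6 strains) the median rho over the 31 members was 0.77, and within batch 3 (15 strains) it was 0.82, with all 31 positive in each. In batch 3 alone 16 members passed. In the table of assembled genes 15 of 25 members rose with Irf7, against 0.0868% of all assembled genes called (0.0847% rising and 0.00217% falling).

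**Figure D4:**
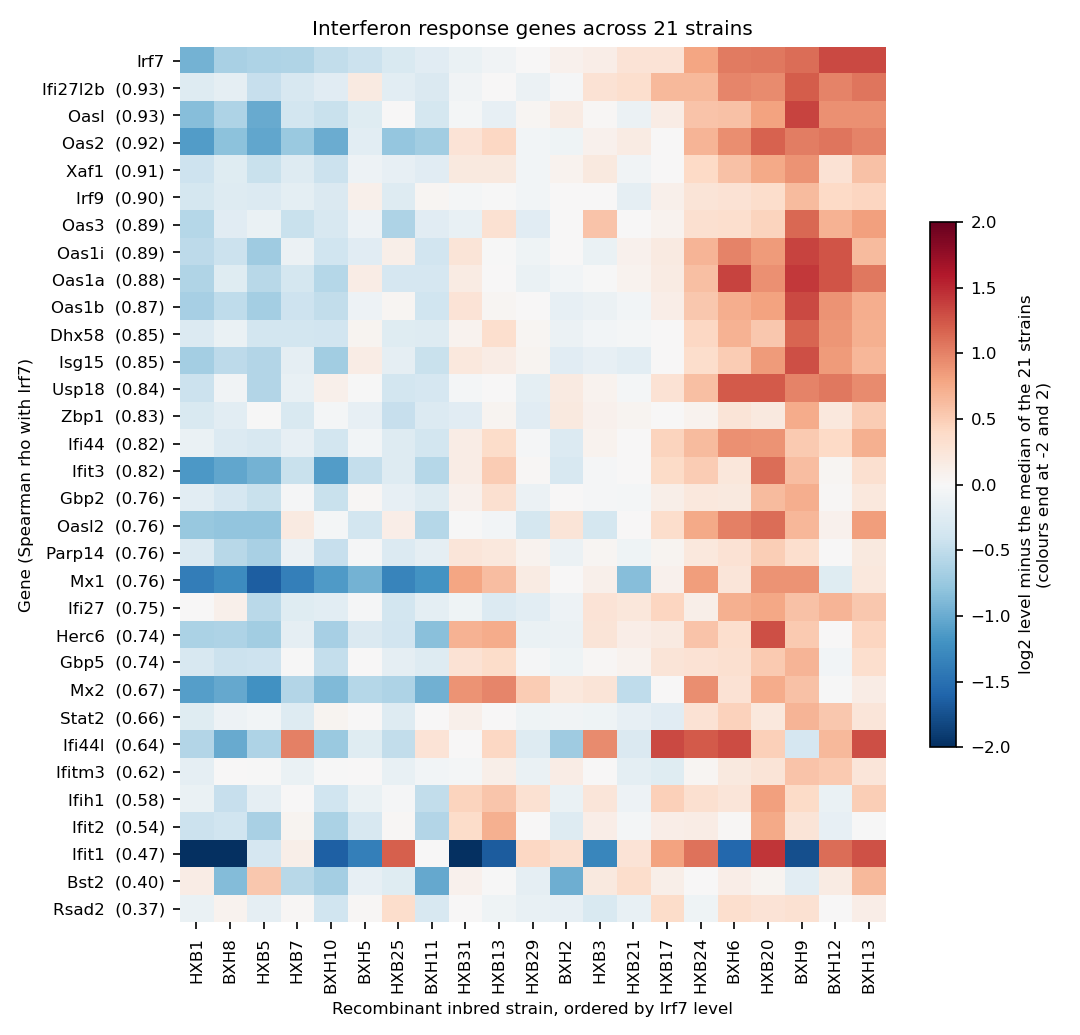
Level of 32 interferon response genes (rows, in order of their Spearman rho with Irf7, in brackets) in 21 recombinant inbred strains (columns, in order of the Irf7 level), as the deposited log2 value minus the median of the strains, with higher levels in red and lower levels in blue. Most rows turn from blue to red as Irf7 does, with 6 strains at the right highest, while Rsad2 (rho 0.37), Bst2 (rho 0.40) and Ifit1 (rho 0.47) follow least.

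The Irf7 levels had their largest gap between 11.31 and 11.82, with 6 strains above it (HXB20, HXB24, BXH6, BXH9, BXH12 and BXH13) and 15 below. A mixture fit gave 1 mode for Irf7 after centring within batch and 2 without it. Among the 15 strains below the gap the members' rho with Irf7 had a median of 0.68 and was positive for all 31. Among the 6 above it the median was 0.14 and 18 of 31 were positive. The split was made on Irf7 itself, which spans only 11.82 to 12.36 in those 6 strains, and the difference was not tested. Oas1a had the same 6 strains above its own largest gap (8.84 to 9.28), and Usp18 had 5 of them above its gap (10.28 to 10.62).

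The summed macrophage markers had r of 0.60 and rho of 0.40 with Irf7 across the 21 strains, batch-centred. The atrial sum ran the other way with a rho of similar size (r = -0.31, rho = -0.39). Most of that sum is Nppa (median 12.89 over the strains, against 7.44 for Myl4). Taken singly, the 4 atrial markers had a median slope of 0.15 per unit of Irf7. The lymphocyte sum, mostly Cd4 (median 10.33, against 6.17 for Prf1), had r of 0.37 (rho 0.21). Cd4 was not among the 11 lymphocyte markers summed in the SHR and BN-Lx animals, so that sum is not comparable with this one. Endothelial markers had r of -0.18 (rho -0.20). None of the 12 macrophage markers passed the limma test with Irf7, with 9 at an unadjusted p under 0.05, and 1 of the 12 lymphocyte markers passed. Of all RefSeq genes 0.377% did. Cardiomyocyte, fibroblast and plasmacytoid dendritic cell markers had r of 0.02, -0.04 and -0.09. Their part in the relation was not tested.

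Genes of the pathway outside the 33 moved with Irf7 chiefly among the interferon-induced ones, of which 18 of 48 passed, all rising. Of all RefSeq genes 0.377% passed. Lgals3bp, a secreted glycoprotein gene, rose by 0.67 (SE 0.06, limma adjusted p = 9.32e-07) and Uba7, the activating enzyme for Isg15, by 0.48 (SE 0.05, adjusted p = 2.50e-06) per unit of Irf7. Of 16 sensors and adaptors 1 passed, Ddx58 (0.36, SE 0.06, limma adjusted p = 0.00215), and of 12 regulatory factors and brakes 1, Isg20 (0.31, SE 0.05, adjusted p = 0.00619). Among genes in no list the 3 with the highest rho were Fam184b (0.85), Batf2 (0.85) and Sp110 (0.85), over 21 strains.

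Some members had levels that fell into separate groups of strains. A mixture fit found more than 1 mode for 10 of the 32 members (Mx1, Mx2, Oas1a, Oas2, Usp18, Bst2, Ifi27l2b, Ifi44, Ifi44l and Dhx58), against 15.6% of all RefSeq genes. Oas2 had 3 modes and the others 2. These modes were counted on levels centred within batch, while the gaps given are in levels not centred. Without centring Bst2 had 1 mode and Mx1 had 3. Oas2 ran from 6.22 through a median of 7.38 to 8.52 in HXB strains, against 6.35, 7.25 and 8.41 in BXH strains, with 14 strains above its largest gap (6.64 to 7.12). Oas1a ran from 8.06 through 8.67 to 9.58 in HXB strains, against 8.10, 8.82 and 10.08 in BXH strains. The ranges of the families overlapped for both genes. Usp18 was 9.09, 9.63 and 10.89 in HXB strains, against 9.34, 9.85 and 10.90 in BXH strains at the lowest, median and highest. Ifi27l2b was 8.58, 9.02 and 9.99 in HXB strains, against 8.77, 9.23 and 10.27 in BXH strains, with 7 strains above a gap between 9.39 and 9.69. Ifi44 was 9.32, 9.68 and 10.55 in HXB strains, against 9.28, 9.59 and 10.57 in BXH strains, and 8 strains lay above a gap between 9.80 and 10.02. For Dhx58, which modulates the RNA sensors, only BXH9 (9.18) lay above the largest gap; it ran from 7.64 through 7.99 to 8.55 in HXB strains, against 7.62, 8.07 and 9.18 in BXH strains. Since Oas1a, Oas2, Usp18, Ifi27l2b, Ifi44 and Dhx58 all followed Irf7 with rho of 0.82 or more, their groups are not separate observations.

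Mx1 and Mx2 split the panel in the same place. Mx1 had no strain between 8.31 and 8.92, and Mx2 none between 9.93 and 10.42, and the same 12 strains lay above both gaps and the same 9 below. The 12 strains were 7 HXB and 5 BXH strains, 3 in batch 2 and 9 in batch 3, and included all 6 with the highest Irf7. Mx1 ran from 8.92 through a median of 9.39 to 10.07 in the 12, against 7.51, 7.90 and 8.31 in the 9. Mx2 ran from 10.42 through 10.83 to 11.41 in the 12, against 9.22, 9.55 and 9.93 in the 9.

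By family, Mx1 ran from 7.51 through 9.26 to 10.06 in HXB strains, against 7.90, 8.92 and 10.07 in BXH strains, and Mx2 from 9.22 through 10.56 to 11.41 in HXB strains, against 9.40, 10.43 and 11.02 in BXH strains, so each family held both groups. Within the groups, which were split on these genes themselves, rho of Mx1 with Mx2 was 0.80 in each (12 and 9 strains). In the 12 strains rho of Irf7 was 0.04 with Mx1 and -0.38 with Mx2, against 0.80 with each in the 9. That difference was not tested. BXH12, second highest for Irf7, was the lowest of the 12 for Mx1 and Mx2, and HXB31 and HXB13, with Irf7 near the middle of the panel (10.90 and 10.96), were among the highest for Mx2 (11.33 and 11.41).

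**Figure D5:**
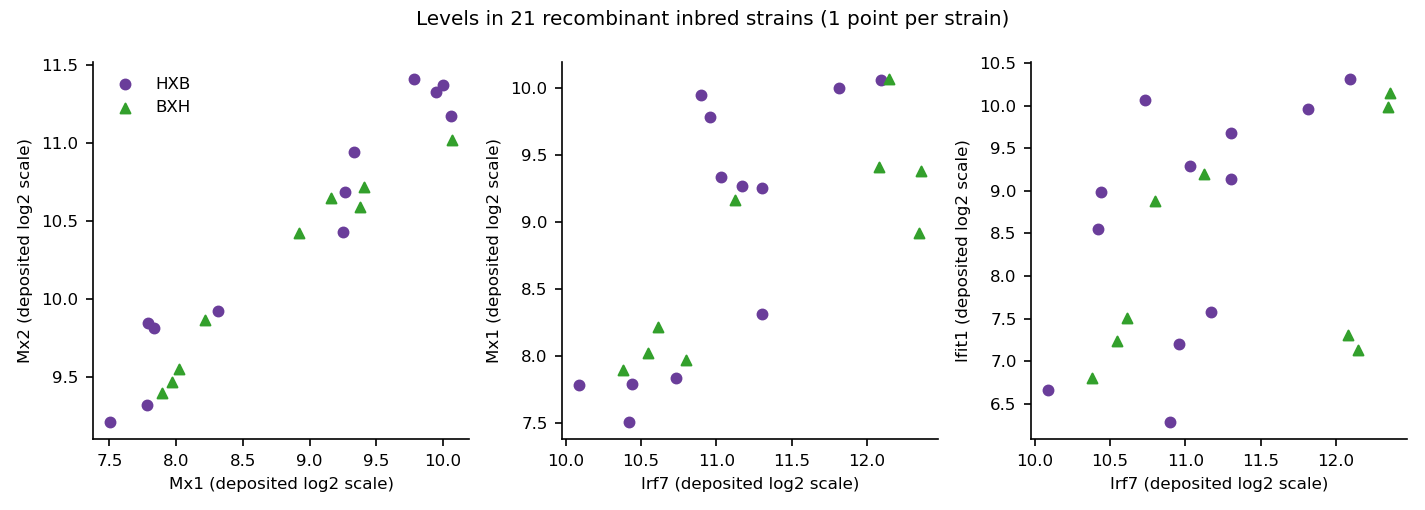
Deposited log2 levels in 21 recombinant inbred strains (1 point per strain, HXB as purple circles and BXH as green triangles), for Mx2 against Mx1, Mx1 against Irf7 and Ifit1 against Irf7. Mx1 and Mx2 leave a gap between the same 12 and 9 strains (8.31 to 8.92 for Mx1 and 9.93 to 10.42 for Mx2), and Ifit1 leaves a gap from 7.57 to 8.55 at every Irf7 level.

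Ifit1 had the widest gap of the 6 genes examined in this way, from 7.57 to 8.55, with 12 strains above it and 9 below. It ran from 6.29 through 9.06 to 10.31 in HXB strains, against 6.80, 7.50 and 10.15 in BXH strains at the lowest, median and highest. Only 7 of its 12 higher strains were also above the Mx1 gap, and 4 of the 6 strains with the highest Irf7 were above the Ifit1 gap, BXH6 and BXH9 being below it (7.31 and 7.13). In batch 2 only 1 of 6 strains was above, against 11 of 15 in batch 3, and the mixture fit gave 2 modes for Ifit1 only when levels were not centred within batch, so the split and the batch cannot be fully told apart. The medians of the batches were 7.41 (batch 2) and 9.14 (batch 3), and the 2 later libraries of SHR replicate 4 read 10.94 and 9.82. Ifit1 had rho of 0.17 with Ifit2 and 0.29 with Ifit3, its neighbours, which had 0.87 with each other (21 strains, batch-centred).

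Other neighbours on a chromosome behaved in different ways once Irf7 and batch were taken out of each. The rho of what remained was 0.92 for Mx1 and Mx2, 0.93 for Ifit2 and Ifit3, 0.90 for Gbp2 and Gbp5, and 0.84 for Ifi27 and Ifi27l2b, but 0.51 for Oasl and Oasl2, 0.51 for Ifi44 and Ifi44l, 0.45 for Oas1a and Oas2 and 0.10 for Oas2 and Oas3 (21 strains each). These pairs were chosen for their place, with values of some already known. Over all 496 pairs of the 32 members, before Irf7 was taken out, rho was positive for 495, with a median of 0.73. Near-identical copies, as within the Oas1, Ifitm and Ifi27 families, may share reads, and how these were divided is not given in the sources used here.

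Irf7 accounted for the lowest shares of variance between strains in Bst2 (15.3%), Ifit1 (17.9%), Rsad2 (19.7%), Ifit2 (24.2%), Ifih1 (32.6%) and Ifi44l (34.5%), against 88.5% in Oas1a and 89.0% in Oasl. Bst2 ran from 9.64 through 10.26 to 10.73 in HXB strains, against 9.17, 9.98 and 10.84 in BXH strains, and 5 strains lay below its largest gap, between 9.64 and 9.94. In these levels, not centred within batch, the mixture fit gave Bst2 1 mode. Ifi44l ran from 6.02 through 6.84 to 7.96 in HXB strains, against 5.63, 6.40 and 7.93 in BXH strains, with 6 strains above a gap between 7.27 and 7.58. These are RefSeq levels, with a median of 6.63 over the panel. The assembled gene compared between SHR and BN-Lx ran from 7.24 through a median of 8.52 to 9.33 in the same strains. The RefSeq levels of Ifi44l can therefore not be set against those of the progenitor animals.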

How the data were processed

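RNA from the left ventricle was sequenced in 31 samples with a stranded kit for total RNA depleted of ribosomal RNA. Tools named in the submitters' processing notes, with no role or order, were RSEM 1.3.1, StringTie 1.3.5, DESeq2, HISAT2 2.1.0, cutadapt 1.9.1 and Bowtie2 2.3.4.3, and the genome build was rn7. The values used are log2 values deposited by the authors, for genes assembled from the reads, for their transcripts and for RefSeq genes. How they were scaled and transformed, and how reads that fit several genes were divided, no source used here gives. The depth is unknown, and library medians were 3.99 to 4.73 for assembled genes and 7.89 to 7.97 for RefSeq genes. Spike-in rows were left out, as were tables of strain means and a table by Ensembl identifiers, which the reference used here does not pair with the members' names. The study text at hand describes brain data, so no method for these heart values was taken from it.

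The comparison of SHR with BN-Lx used the 8 batch 1 libraries (assembled genes), and those of HXB with BXH and with the Irf7 level used the 21 recombinant inbred libraries with batch as a covariate (RefSeq genes). Limma 3.58.1 in R 4.3.3 was run two-sided and with an intensity trend, and p-values were adjusted by Benjamini-Hochberg over all genes of the table and a threshold of 0.05. Modes were counted with mclust 6.1.1 (normal mixtures of equal variance, 1 to 3 components). The scripts were tested on simulated data. Across the 26 members in both tables the 21 strains were ordered alike by the tables (median rho 0.96, lowest 0.88).

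The members and gene lists were chosen with earlier results of these data known. The text names every member, in full those called in a comparison, the 6 with the largest spread between strains and those with more than 1 mode. Of each other list it names at most the 2 called genes with the smallest adjusted p, and of genes in no list the 3 with the highest rho with Irf7. Alternatives were no intensity trend, quantile normalization, only genes with a mean over 5, each animal left out, a replicate block, a fit of all groups, the mean of the libraries of SHR replicate 4, no batch term, batch 3 alone, leaving out BXH12 and BXH13, the other table, and, added after the data were seen, Irf7 as a covariate. The relation of the receptors and kinases to Irf7 is not reported here.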

Additional observations from a re-analysis of the deposited data

Results flagged for a closer look

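In 2 of 84 groups examined (26 members in the 4 SHR and in the 4 BN-Lx animals, and 32 members in the 9 BXH strains), 1 animal lay far from the others by Dixon's criterion, which flags about 1 in 20 groups by chance. Ifi27l2b was 9.01 in BN-Lx replicate 3, and the nearest other BN-Lx animal was at 9.63. Zbp1 was 3.68 in SHR replicate 3, and the nearest other SHR animal was at 4.75.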

How the results depend on the processing

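Between SHR and BN-Lx, 4 members were higher and 2 lower, and 6603 assembled genes passed. Without the intensity trend 1 was higher and 1 lower, with all groups in a fit 1 was higher and 0 lower (3916 genes passed), with the mean of the libraries of SHR replicate 4 2 were higher, and with Irf7 as a covariate, added after the data were seen, 6 were lower. Leaving out 1 animal at a time gave 2 to 7 higher members and 4377 to 6114 genes in all, with 2 lower members each time. It was 7 without SHR replicate 3, and 2 without SHR replicate 1, SHR replicate 4 or BN-Lx replicate 3. With a replicate block 7 were higher and 3 lower. Over all assembled genes the deviations of same-numbered animals had correlations of 0.03, -0.04, -0.04 and -0.01, so no pairing was seen there. Among the members, replicate 3 was the lowest animal for 25 of 26 in SHR and 24 of 26 in BN-Lx. Whether same-numbered animals share a factor that acts on the members was not tested. Between HXB and BXH 2 members were lower, against 1 in batch 3 alone and 4 in the table of assembled genes, where 12871 genes passed and not 6940. With Irf7, 72 genes passed, against 39 in batch 3 alone and 40 in the table of assembled genes, and the members called were 15 to 24. More than 1 mode was found for 10 members, and for 12 without centring. Between SHR and BN-Lx, 11 of the 26 members changed sign under at least 1 alternative (28 values), none of them a called value or called in its new direction. The differences ran, over the fits that left out 1 animal, Gbp5 -0.21 to 0.12, Ifi44 -0.17 to 0.26, Ifit2 -0.29 to 0.12, Isg15 -0.54 to 0.12, Oas1a -0.24 to 0.37, Rsad2 -0.082 to 0.22, Usp18 -0.38 to 0.20 and Xaf1 -0.30 to 0.11. With Irf7 as a covariate they were -0.034 (Stat2), -0.045 (Ifit3), -0.33 (Oas1a), -0.091 (Rsad2), -0.19 (Ifi44) and -0.019 (Gbp2), and Oas1a was -0.017 with quantile normalization and -0.025 with the mean of the libraries of SHR replicate 4. Of the values of single members, 21 for SHR against BN-Lx lost and 12 gained the threshold, 1 of those for HXB against BXH lost it, and 8 of those for Irf7 lost and 7 gained it. The cause was not tested. With the depth unknown, its effect on low genes such as Zbp1 could not be judged.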
